A study of Mus musculus with 18 samples.

Results

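The 9 genes described here encode enzymes that make, or in 1 case cut, the choline and ethanolamine phospholipids of cell membranes. They are the kinases Chka, Chkb and Etnk1, the cytidylyl transferases Pcyt1a and Pcyt2, the phosphotransferases Chpt1 and Cept1, the methyltransferase Pemt, and Abhd3, a phospholipase. A probe set was taken for a gene where the platform table gave that gene as its only symbol, which yielded 21 of 45101 probe sets on the array. All 9 genes passed the filter on dim signals, among 12793 genes that did so and 18194 with a single-gene probe set, and 19 of the 21 probe sets passed. The group was chosen on the tumour against normal differences of these same arrays, in which Chpt1 and Abhd3 had been noticed among the large decreases, and holds other enzymes of the pathway beside them. Their differences between tumours and normal prostate are therefore a description, with no test.

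Phosphatidylcholine is the main phospholipid of most animal membranes. Cells make it chiefly by the Kennedy pathway, in which choline is phosphorylated, activated with CTP to CDP-choline by a cytidylyl transferase that usually sets the rate, and joined to diacylglycerol by a phosphotransferase. A parallel branch makes phosphatidylethanolamine, which PEMT, mainly in liver, can methylate to phosphatidylcholine. Raised choline metabolites are a well known feature of human prostate cancer, and choline kinase alpha is the enzyme of this pathway most often linked to tumours.

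The series set tumours of TRAMP mice against normal mouse prostate. TRAMP (Transgenic Adenocarcinoma of the Mouse Prostate) animals carry simian virus oncoproteins under the probasin promoter, which is active in prostate epithelium. The tested RNA came from 9 TRAMP tumours, for which the labels give no lobe, age, stage or strain, and from 9 normal prostates, taken as ventral plus dorsolateral lobes, again without age or strain. Each sample was hybridised to 1 Affymetrix array, and whether the samples of each kind are separate animals is not labelled, so any p-value measures the spread between these samples. All values are log2(signal + 16) of MAS5 intensities, in which fold changes of dim genes are understated. Each gene is represented by its brightest probe set that passed the filter unless another is named, and probe sets of different genes are not compared in level. A difference is tumours minus normal prostate, and its SE is from limma.

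Some arrays stood apart. The poly-A controls, spiked into RNA before labelling, divided the arrays into a first technical batch of tumours 1 to 5 with normal prostates 1 to 6 and a second of tumours 6 to 9 with normal prostates 7 to 9. Tumours 6 and 8 were closer to each other than any other of 153 array pairs: log2 differences had an SD of 0.255 over 11622 bright probe sets. The SD was 0.338 for the next closest pair, normal prostates 1 and 6, and 0.534 for the next closest tumour pair. Seminal vesicle genes were high in tumours 3, 5 and 7, less so in tumours 6 and 8, and in normal prostate 9, where the summed secretory prostate markers were only 1355 against 62778 or more on the other normal arrays. The summed luminal epithelial markers were bright on every array except tumours 1 and 9 (8020 and 5936, against 45425 or more elsewhere), and these 2 tumours, with tumour 4, carried neuroendocrine markers. Hoxb13, of the same luminal list, went the other way, highest among tumours in tumours 1 and 9 (11.70 and 12.15). It was only 4.39, 4.40 and 4.26 in tumours 3, 5 and 7 and 4.50 in normal prostate 9. Urothelial and basal markers stood out in tumour 4 (summed signals of 60799.5 and 22224) and normal prostate 3 (69499.8 and 20684), against at most 19525 and 5275 elsewhere, and skeletal muscle markers in normal prostate 1 (111905, against at most 21398 elsewhere). Normal prostate 3 was also the dimmest normal array for Chpt1 and Abhd3. The secretory marker Pbsn, the gene of probasin, was dim, meaning under the 40th percentile of its array, on all 9 tumours. In bulk tissue fewer cells of a type and less RNA per cell cannot be told apart.

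Of the 9 genes, 4 were lower in tumours at a limma adjusted p under 0.05 (Chpt1, Cept1, Chka and Abhd3) and 0 were higher. Over all 12793 genes, 24% were called in either direction and 12.7% were called lower. For 2 of the 9, Chpt1 and Abhd3, every tumour lay below every normal prostate, as did 0.93% of all genes. Nothing is read from these counts, since the same contrast entered the choice of genes. Counting probe sets, 11 were lower and 10 higher on average in tumours.

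**Figure D1:**
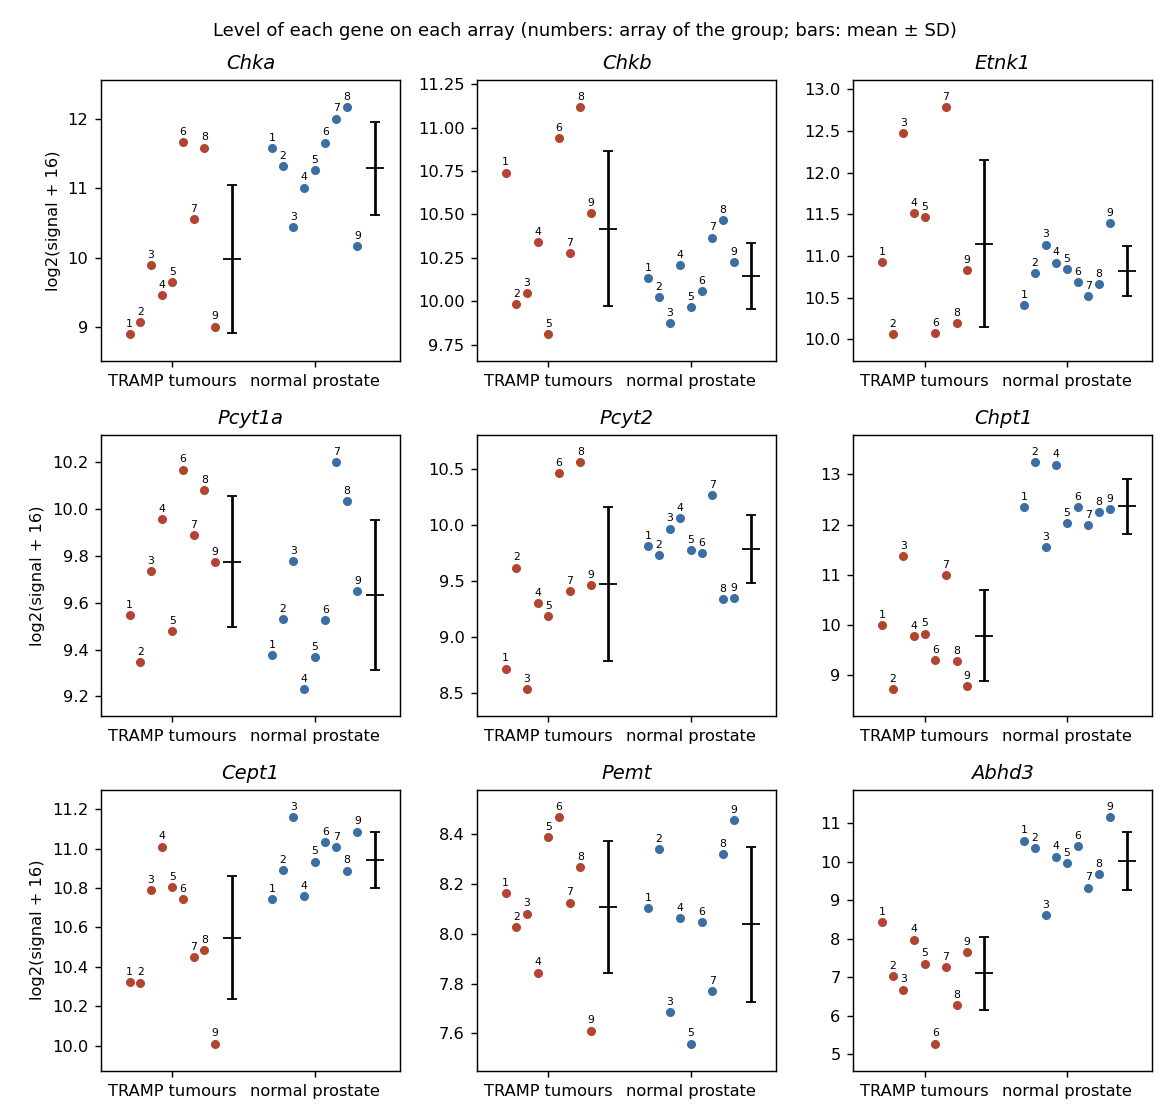
Level of each of the 9 genes on each array, as log2(signal + 16), with TRAMP tumours (red) on the left and normal prostate (blue) on the right of each panel. Numbers are array numbers within the group, and bars show the mean ± SD over 9 arrays. The groups are separate for Chpt1 and Abhd3 and overlap for the other 7 genes.

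The promoters of the 3 pathway genes that were lower in tumours and have a RefSeq promoter window are shown to give the DNA at the start of each gene, since arrays measure only the transcript. Each is 250 bases before to 50 bases after the annotated start in RefSeq, build GRCm38.p6, read 5′ to 3′ on the gene's own strand. Chpt1 lies at chr10:88503921-88504220 on the minus strand, Cept1 at chr3:106547753-106548052 on the minus strand (the first of 3 windows listed for it), and Chka at chr19:3851523-3851822 on the plus strand. Capitals mark the GC box GGGCGG, or CCGCCC on the other strand, and the CCAAT box, CCAAT or ATTGG, none of which overlaps a motif of the other kind.
Chpt1: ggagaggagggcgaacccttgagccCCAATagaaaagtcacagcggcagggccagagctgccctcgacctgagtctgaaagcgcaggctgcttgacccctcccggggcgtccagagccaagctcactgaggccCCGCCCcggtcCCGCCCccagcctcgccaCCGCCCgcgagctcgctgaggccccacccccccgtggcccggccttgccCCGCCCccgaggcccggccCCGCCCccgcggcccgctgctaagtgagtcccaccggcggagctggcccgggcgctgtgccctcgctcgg
Cept1: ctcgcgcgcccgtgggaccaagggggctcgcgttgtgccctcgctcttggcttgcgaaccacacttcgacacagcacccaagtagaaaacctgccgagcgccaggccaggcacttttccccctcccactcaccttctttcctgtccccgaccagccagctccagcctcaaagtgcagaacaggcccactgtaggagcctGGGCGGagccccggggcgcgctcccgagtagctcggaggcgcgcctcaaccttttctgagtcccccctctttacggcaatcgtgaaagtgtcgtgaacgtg
Chka: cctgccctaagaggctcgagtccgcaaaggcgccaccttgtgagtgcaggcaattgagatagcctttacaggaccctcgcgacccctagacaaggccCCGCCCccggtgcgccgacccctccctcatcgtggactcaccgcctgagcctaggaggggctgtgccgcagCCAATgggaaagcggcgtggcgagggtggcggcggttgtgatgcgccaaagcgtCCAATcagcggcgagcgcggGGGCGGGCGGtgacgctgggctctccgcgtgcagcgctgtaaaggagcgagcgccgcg

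The Chpt1 window held 5 GC boxes and 1 CCAAT box in 75.3% G and C, the Cept1 window 1 GC box and no CCAAT box in 64% G and C, and the Chka window 3 GC boxes, of which 2 overlap each other, and 2 CCAAT boxes in 68.7% G and C. Over 32851 windows of the same length, 35.7% held a GC box, 37.4% a CCAAT box and 2.71% at least 5 GC boxes. Only the first listed window of each of the 7 genes with a window was searched, although Cept1, Pcyt1a and Pemt have 3, 3 and 2. Of the other letters searched there on both strands, the E-box CACGTG, in 7.15% of all windows, was in none of these 7. AGAACA, the letters that 1 androgen receptor monomer binds, was in 19.0% of all windows and, of the 7, in that of Cept1, once. These matches describe letters and not binding.

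The kinases that commit choline and ethanolamine to the pathway did not differ alike between tumours and normal prostate. Chka, choline kinase alpha, had a lowest, median and highest level of 8.91, 9.65 and 11.66 in tumours, against 10.17, 11.32 and 12.17 in normal prostate. Tumours 1, 2, 3, 4, 5 and 9 lay below every normal prostate, while tumours 6, 7 and 8 lay inside the normal range. The means were 9.98 ± 1.06 in tumours and 11.29 ± 0.668 in normal prostate (SD, n = 9 each), a difference of -1.31 ± 0.393 (SE), or 2.48-fold lower. The other probe sets of Chka differed by -1.74 and -1.24, and the 3 tracked each other closely, with correlations of 0.97 to 0.98 between their deviations from the group means over 18 arrays. The difference was -1.52 with tumours 6 and 8 averaged to 1 sample and -1.78 without them.

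Chkb, choline kinase beta, is the second isoform of the enzyme and the one needed for normal muscle membranes in mice. Its levels ran from 9.81 through a median of 10.34 to 11.12 in tumours and from 9.88 through 10.13 to 10.47 in normal prostate. Tumours 1, 6, 8 and 9 were above the whole normal range and tumour 5 was below it. The means, 10.42 ± 0.446 in tumours and 10.15 ± 0.191 in normal prostate (SD, n = 9 each), differed by 0.27 ± 0.168 (SE), and by 0.10 without tumours 6 and 8. A further probe set names Chkb together with Gm44502 and Cpt1b and was not used.

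Etnk1, ethanolamine kinase, opens the ethanolamine branch. It ran from 10.07 through a median of 10.93 to 12.79 in tumours and from 10.42 through 10.79 to 11.40 in normal prostate. Tumours 3, 4, 5 and 7 were above every normal prostate and tumours 2, 6 and 8 below every one, so the tumour group straddled the normal range. The mean difference of 0.33 ± 0.331 (SE) hides that spread: the SD was 1.003 in tumours and 0.304 in normal prostate. Its other 4 probe sets differed by 0.33 to 0.97. Without normal prostate 9 and tumours 3, 5 and 7, the arrays highest in seminal vesicle genes, the difference was -0.14.

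Of the cytidylyl transferases, Pcyt1a, whose product makes CDP-choline, ran from 9.35 through a median of 9.77 to 10.17 in tumours and from 9.23 through 9.53 to 10.20 in normal prostate. The groups covered almost the same range, with means of 9.78 ± 0.278 in tumours and 9.63 ± 0.321 in normal prostate (SD, n = 9 each). The difference was 0.14 ± 0.152 (SE), and the other 3 probe sets gave -0.04 to 0.55. These probe sets barely followed each other (correlations of 0.12 to 0.50 between deviations over 18 arrays), so a pattern over arrays read from a single Pcyt1a probe set is uncertain.

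Pcyt2, whose product makes CDP-ethanolamine, ran from 8.54 through a median of 9.41 to 10.56 in tumours and from 9.34 through 9.78 to 10.26 in normal prostate. Tumours 1, 3, 4 and 5 lay below the normal range and tumours 6 and 8 above it. The means of 9.47 ± 0.684 in tumours and 9.78 ± 0.303 in normal prostate (SD, n = 9 each) differed by -0.31 ± 0.243 (SE). The difference was -0.44 with tumours 6 and 8 averaged and -0.61 without them, so its size moved with this near-identical pair. Not called with all arrays, Pcyt2 was called lower without tumours 6 and 8, in the first technical batch alone, and without normal prostate 9 and tumours 3, 5, 6, 7 and 8 (-0.56).

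The last step of the pathway is shared by Chpt1, cholinephosphotransferase, which makes phosphatidylcholine in the Golgi, and Cept1, which uses both CDP-choline and CDP-ethanolamine. Chpt1 ran from 8.74 through a median of 9.79 to 11.37 in tumours and from 11.55 through 12.32 to 13.25 in normal prostate. The brightest tumours, 3 (11.37) and 7 (11.00), came close to the dimmest normal prostate, 3 (11.55), and the other 7 tumours were at or under 10.001. The means were 9.79 ± 0.908 in tumours and 12.36 ± 0.549 in normal prostate (SD, n = 9 each), a difference of -2.57 ± 0.335 (SE), or 5.95-fold lower.

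The size of the Chpt1 difference depended on the probe set. Its other 3 probe sets differed by -1.98, -1.63 and -1.23, and in each of them the groups overlapped. All 4 varied together over the arrays, with correlations of 0.76 to 0.91 between deviations from the group means. The brightest, which represents the gene, can also match more than 1 transcript of Chpt1 by its suffix. Tumours 3 and 7 were also high in seminal vesicle genes, and without normal prostate 9 and tumours 3, 5 and 7 the difference was -3.05. The part of seminal vesicle tissue in it was not tested.

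Cept1 differed far less than Chpt1. It ran from 10.01 through a median of 10.49 to 11.01 in tumours and from 10.74 through 10.93 to 11.16 in normal prostate. Tumours 1, 2, 7, 8 and 9 lay below every normal prostate, tumour 6 at the lower edge of the normal range, and tumours 3, 4 and 5 inside it. The means of 10.55 ± 0.313 in tumours and 10.94 ± 0.142 in normal prostate (SD, n = 9 each) differed by -0.40 ± 0.131 (SE), or 1.32-fold. Its call held on omission of 1 array in 8 of 18 cases, while those of Chpt1, Chka and Abhd3 held in all 18. These counts describe the fit and are no support for the differences, since the same contrast entered the choice of genes.

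**Figure D2:**
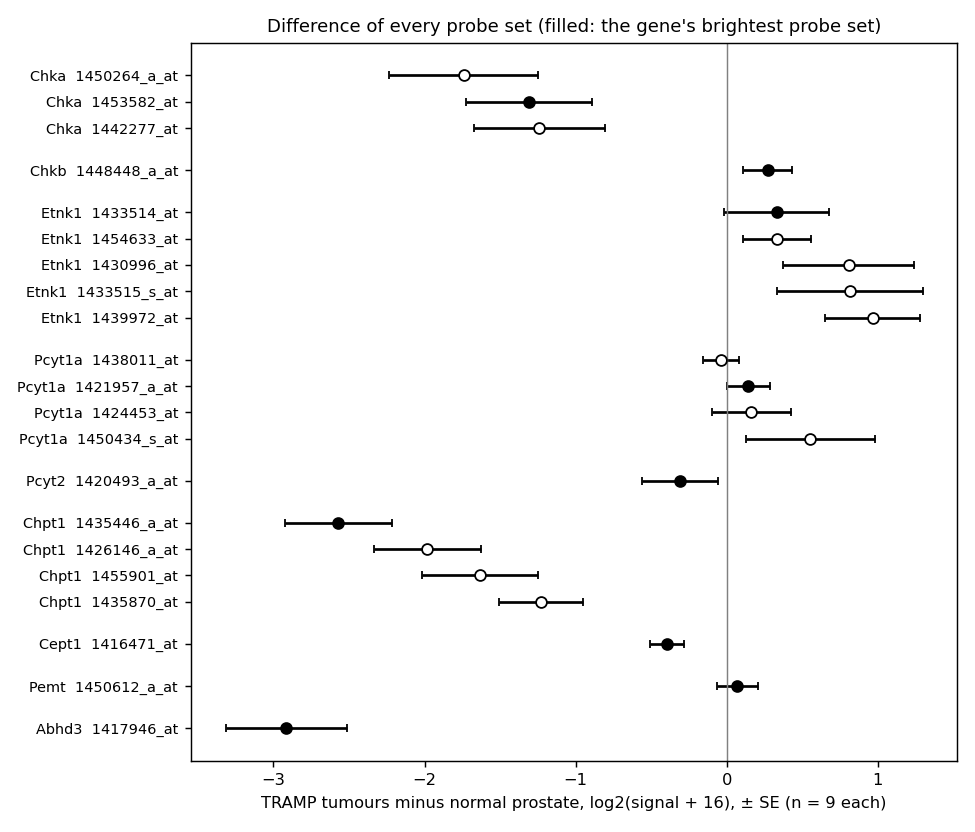
Difference of each of the 21 probe sets between TRAMP tumours and normal prostate in log2(signal + 16), with SE from the 9 arrays of each group, filled for the probe set that represents its gene. The 4 Chpt1 and 3 Chka probe sets all lie left of 0, the 5 Etnk1 probe sets right of it, and those of Pcyt1a on both sides.

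Pemt, the methyltransferase of the alternative route to phosphatidylcholine, ran from 7.61 through a median of 8.12 to 8.47 in tumours and from 7.56 through 8.06 to 8.46 in normal prostate. The groups overlapped almost completely. The means of 8.11 ± 0.264 in tumours and 8.04 ± 0.311 in normal prostate (SD, n = 9 each) differed by 0.07 ± 0.148 (SE).

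Abhd3 encodes an alpha/beta hydrolase that, in mice, cleaves phosphatidylcholines with medium-chain or oxidatively shortened fatty acids. It ran from 5.28 through a median of 7.26 to 8.44 in tumours and from 8.62 through 10.13 to 11.17 in normal prostate. Tumour 6 was the lowest and tumour 1 the highest of the tumours, and tumour 1 (8.44) came close to the dimmest normal prostate, 3 (8.62). The means were 7.11 ± 0.945 in tumours and 10.02 ± 0.746 in normal prostate (SD, n = 9 each), a difference of -2.92 ± 0.378 (SE), or 7.54-fold lower. Abhd3 was dim on 4 tumours, and with dim values raised to the 40th percentile of their arrays the difference was -2.52. It has 1 probe set, so no second one checks it, and it was the gene on which tumours 6 and 8 differed most among the 9, by 1.001 (0.26 or less for the other 8).

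Tumours varied more than normal prostates in several of these genes. The SD in tumours was over 2 times that in normal prostate for Cept1 (2.20 times), Chkb (2.34), Pcyt2 (2.25) and Etnk1 (3.30), that is for 4 of 9. The median ratio was 1.66 for the 9 genes and 1.38 for all genes tested, of which 24.3% exceeded 2. The wider spread in tumours was thus also seen across the array.

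Within a group, some of these genes went up and down together from array to array. Correlations of deviations from the group means are given as a description over 18 arrays, which share samples, batch and the near-identical tumours 6 and 8. Chpt1 and Etnk1 correlated at 0.72, and this came from the tumours (0.89 over the 9 tumours, -0.07 over the 9 normal prostates). Both were high in tumours 3 and 7 and low in tumour 2. Chka and Pcyt2 correlated at 0.60 (0.74 over tumours, 0.13 over normal prostates), both being highest in tumours 6 and 8. Abhd3 ran against both of them, at -0.61 with Chka (-0.83 over tumours, -0.16 over normal prostates) and -0.62 with Pcyt2. The 4 tumours on which Abhd3 was dim, 3, 6, 7 and 8, were those with the highest Chka. Dim Abhd3 signals thus enter these correlations. Pcyt2 and Etnk1 also ran in opposite directions, at -0.61. Chka and Chkb correlated at 0.55 (0.57 over tumours, 0.52 over normal prostates).

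**Figure D3:**
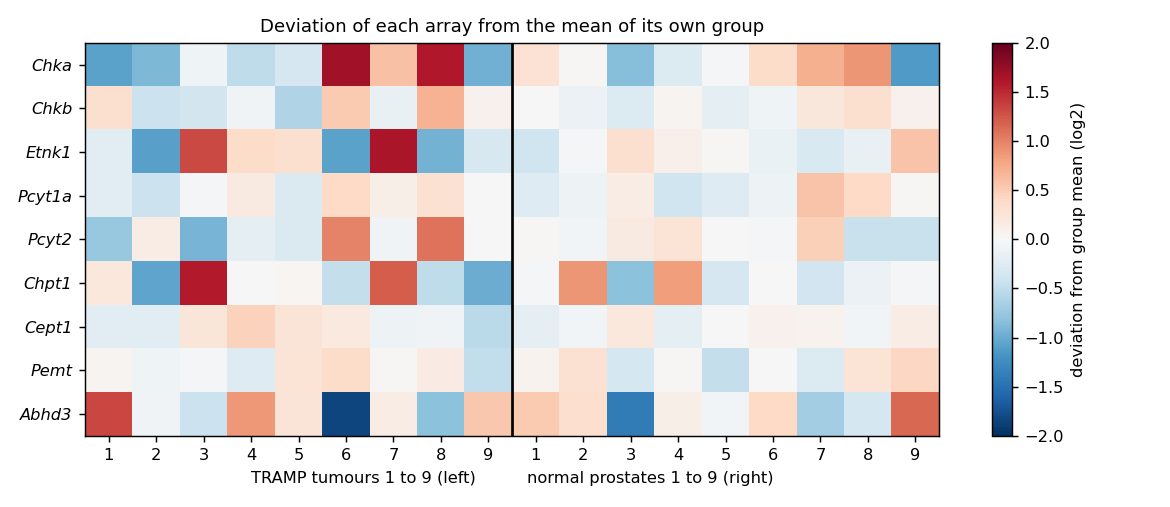
Deviation of each array from the mean of its own group in log2 units, for the 9 genes (lines) and 18 arrays (columns, TRAMP tumours left of the black line and normal prostates right of it). Tumours 6 and 8 are alike in nearly every gene, high in Chka and Pcyt2 and low in Etnk1 and Abhd3, and tumours 3 and 7 share high Chpt1 and Etnk1.

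Across all genes tested, those whose deviations were most like Chpt1's were Pcx, the pyruvate carboxylase gene, at 0.860, the inositol transporter gene Slc5a3 at 0.858, the carboxylesterase gene Ces1d at 0.829, the dolichol kinase gene Dolk at 0.826 and the transporter gene Abca9 at 0.824. Those most like Abhd3 were the ubiquitin ligase gene Ubr1 at 0.873, Tbc1d19 at 0.828, the thioesterase gene Them4 at 0.814, the DNA repair gene Xrcc4 at 0.809 and Sncb, the beta-synuclein gene, at 0.805. None of the 10 belongs to the phospholipid lists. The lists of nearest genes rested on a few arrays: without normal prostate 9 and tumours 3, 5 and 7, 1 of the 5 for Chpt1 and 0 of the 5 for Abhd3 were still among the 5 nearest.

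Whether the tumour difference depended on the technical batch was tested, since the batch did not enter the choice of genes. In limma the interaction of group and batch was called for 0% of 12793 genes and for none of the 9 (adjusted p = 0.9999 each). At an unadjusted p under 0.05 there were 292 genes, a smaller share than the 1 in 20 that chance alone gives. Chpt1 differed by -2.51 in the first batch and -2.58 in the second, and Abhd3 by -2.51 and -3.44. Both were thus lower in tumours within each batch. Cept1 differed by -0.27 and -0.57, and Chka by -1.81 and -0.74, lower in tumours in both batches.

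Pcyt2 had the largest interaction of the 9, 1.10 ± 0.416 (SE), and was the 1 gene of the 9 among those 292. Its means were 9.07 in tumours and 9.85 in normal prostate in the first batch (n = 5 and 6), and 9.97 in tumours and 9.65 in normal prostate in the second (n = 4 and 3). Its difference thus changed sign between batches, and the second batch holds the near-identical tumours 6 and 8. Etnk1 differed by 0.49 and 0.11, Chkb by 0.14 and 0.36, Pcyt1a by 0.15 and 0.02, and Pemt by 0.13 and -0.06 in the first and second batch.

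Signals of other cells and RNA quality also moved with the groups. Of the 9 adipocyte markers listed, 6 had a probe set and 5 passed the filter, of which 4 fell in tumours. Their summed signal was 556 to 21472 in tumours, with a median of 2444, and 646 to 92657 in normal prostate, with a median of 35834, and Lep, the leptin gene, was dim on all 9 tumours. All 6 measured markers of dividing cells rose and all 6 measured secretory prostate markers that passed the filter fell. Of 7 measured leukocyte and macrophage markers 6 passed the filter, of which 2 rose and 0 fell. The remaining one, Cd3e, was dim on all 9 tumours, at 5.05 to 6.67 against 5.82 to 7.64 in normal prostate. The summed signal of the list had a median of 9791 in tumours and 6600 in normal prostate. The actin 3′ to 5′ ratio, a measure of RNA degradation, was 0.46 to 2.18 on the log2 scale in tumours and 0.31 to 2.48 in normal prostate, with means of 1.12 and 1.71. Its part in the results was not tested.

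The mean log2 level of adipocyte markers was 6.48 to 9.75 in tumours and 6.67 in normal prostate 7, the lowest of the normal arrays. Chpt1 stood at 11.98 in normal prostate 7 on the probe set that represents it, above only normal prostate 3 (11.55) among normal arrays. On the other 3 probe sets normal prostate 7 was the lowest normal array, at 9.36, 9.37 and 9.87. It lay there below 1, 3 and 3 of the tumours. Abhd3 stood at 9.33 in normal prostate 7, again above only normal prostate 3 (8.62). Normal prostates 2 and 4 had the highest adipocyte means (13.21 and 12.90) and the highest Chpt1 (13.25 and 13.19). They were also highest on the other 3 Chpt1 probe sets. Abhd3 was 10.35 and 10.13 in them, and highest in normal prostate 9. With the adipocyte marker mean as a covariate the differences were -2.07 for Chpt1, -2.24 for Abhd3, -0.38 for Cept1 and -1.88 for Chka. The limma calls of Chpt1 and Abhd3 then held, while those of Cept1 and Chka were lost. As this contrast entered the choice of genes, these calls too are only a description. Normal prostate 9, low in secretory markers with a mean of 6.60 against 11.75 or more on the other normal arrays, had Chpt1 at 12.32 and Abhd3 at 11.17. The part of these cells in the differences was not otherwise tested.

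**Figure D4:**
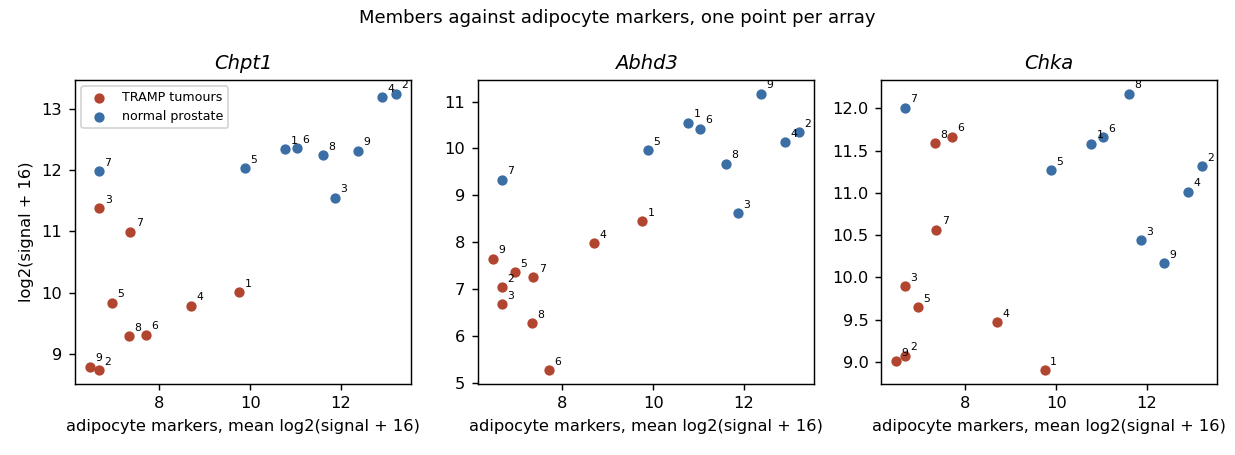
Level of Chpt1, Abhd3 and Chka against the mean log2 level of adipocyte markers, with 1 point per array (TRAMP tumours red, normal prostate blue, numbered within the group). Chpt1 is drawn from the probe set that represents it. Normal prostate 7 has adipocyte markers within the range of the tumours (6.67), and on the other 3 Chpt1 probe sets, which are not drawn, it lies below 1 or 3 tumours.

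The genes around these 9 in lipid metabolism went both ways. In 8 lists of other phospholipid genes, 89 of 112 symbols had a probe set that passed the filter. Of these 5 rose and 16 fell in tumours, so 23.6% were called, beside 24% of all genes tested. Over all genes 11.3% were called higher and 12.7% lower, shares that also stand beside the counts of each list below. The median difference was -0.22 over the lists and -0.01 over all genes. The share called over both directions is at the background, and nothing about the lists as a whole follows from it. The called genes of the lists leaned more to falls than those of all genes, which was not tested. In the first technical batch alone limma called 4 higher and 11 lower, and the calls of Agpat4, Cdipt, Crls1, Ahcy and Abhd13 were lost. In the second batch alone 0 were called in either direction. Averaging tumours 6 and 8, or leaving both out, ended the calls of Crls1 and Abhd13.

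Among other Kennedy pathway enzymes and the enzymes that supply diacylglycerol, 2 of 14 genes rose and 5 fell (median -0.29). Pcyt1b, the second isoform of the CDP-choline enzyme, rose by 1.08 ± 0.273 (SE, limma adjusted p = 0.00831), although it was dim on 4 normal arrays and the difference was 0.90 with dim values raised to the 40th percentile. Its levels were 7.56 to 9.80 in tumours and 6.22 to 7.84 in normal prostate. Agpat4, an acyltransferase of phosphatidic acid synthesis, rose by 0.83 ± 0.207 (adjusted p = 0.00753). Agpat3, another of that family, fell by 1.02 ± 0.145 (adjusted p = 0.000145), at 9.05 to 9.47 in tumours and 9.68 to 10.86 in normal prostate. Gpam, the mitochondrial acyltransferase that starts glycerolipid synthesis, fell by 1.37 ± 0.250 (adjusted p = 0.000966). The groups were separate for Agpat3 and overlapped for Gpam, Agpat4 and Pcyt1b. The other 3 that fell were Agpat2, Dgat2 and Lpin1, which are named here outside the rule for named genes. With the adipocyte marker mean as a covariate the call was lost for Gpam, whose difference stayed near its size at -1.14 (adjusted p = 0.0684), and for Pcyt1b, whose difference shrank to 0.67 (adjusted p = 0.310). With probe sets averaged Gpam differed by -0.91.

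Of 6 transporters of choline and organic cations, 0 rose and 0 fell in limma (median -0.38). Of 10 genes for other phospholipid head groups, 0 rose and 3 fell (median -0.11). Cds2, which makes CDP-diacylglycerol for phosphatidylinositol and cardiolipin, fell by 1.44 ± 0.175 (SE, limma adjusted p = 5.25e-05), at 10.53 to 11.76 in tumours and 11.98 to 13.12 in normal prostate, with no overlap. Its difference was -0.88 without probe sets that can match several transcripts and -0.94 with probe sets averaged. Cdipt, the phosphatidylinositol synthase, fell by 0.67 (adjusted p = 0.0140). Crls1, the cardiolipin synthase, fell by 0.61 (adjusted p = 0.0442), a call lost on omission of any of 12 of the 18 arrays.

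Of 19 genes for breakdown and remodelling of phosphatidylcholine, 2 rose and 2 fell (median -0.14). Lpcat1, which reacylates lysophosphatidylcholine, rose by 1.76 ± 0.361 (SE, limma adjusted p = 0.00217), at 9.19 to 10.42 in tumours and 6.73 to 10.40 in normal prostate. The difference was 0.57 (adjusted p = 0.133) when probe sets that can match several transcripts were left out, and 1.22 (adjusted p = 0.000609) with the probe sets of the gene averaged. Gpcpd1, which splits glycerophosphocholine, rose by 0.77 (adjusted p = 0.0395). Lyplal1, a lysophospholipase-like gene, fell by 1.49 ± 0.222 (adjusted p = 0.000214), with no overlap between 7.60 to 9.21 in tumours and 9.30 to 10.75 in normal prostate. Pnpla7, a lysophosphatidylcholine hydrolase, fell by 0.37 (adjusted p = 0.0361). The calls of Gpcpd1 and Pnpla7 were lost on omission of any of 13 and of 9 of the 18 arrays.

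Of 8 sphingomyelin genes, 0 rose and 1 fell (median -0.17): Smpd1, the acid sphingomyelinase, fell by 0.55 (limma adjusted p = 0.0141). In choline oxidation and the methyl group cycle, 1 of 5 rose and 1 fell (median -0.87). Gnmt, the glycine methyltransferase that consumes methyl groups, fell by 3.43 ± 0.822 (SE, adjusted p = 0.00593), but was dim on 7 tumours and differed by -2.45 with dim values raised to the 40th percentile. Ahcy, which clears the product of methylation reactions, rose by 1.21 ± 0.291 (adjusted p = 0.00605). Chdh, the choline dehydrogenase gene, differed by -1.19 (adjusted p = 0.117), Aldh7a1, a betaine aldehyde dehydrogenase, by -0.87 (adjusted p = 0.164) and Mat2b, a subunit of S-adenosylmethionine synthase, by -0.34 (adjusted p = 0.152). These 3 did not pass the test with all arrays. Without normal prostate 9 and tumours 3, 5 and 7 all 3 were called lower, at -1.69 for Chdh (limma adjusted p = 0.0489), -1.71 for Aldh7a1 (adjusted p = 0.00116) and -0.54 for Mat2b (adjusted p = 0.0306). Without tumours 6 and 8 as well the differences were -2.71 for Chdh (adjusted p = 0.000508), -2.11 for Aldh7a1 (adjusted p = 0.000264), -0.36 for Mat2b (adjusted p = 0.130), -5.64 for Gnmt and -0.86 for Smpd1. Chdh was also called without tumours 6 and 8 alone, at -1.63 (adjusted p = 0.0346). Ahcy differed by 0.64 in the first technical batch and 1.89 in the second. With the adipocyte marker mean as a covariate Smpd1 differed by -0.59 (adjusted p = 0.124) and Ahcy by 1.06 (adjusted p = 0.145), so the calls were lost while the differences stayed about as large.

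Of 9 carriers and exporters of phosphatidylcholine, 0 rose and 1 fell (median -0.18). Abca3, the lipid exporter of lung surfactant, fell by 1.06 ± 0.202 (SE, limma adjusted p = 0.00132), at 9.05 to 10.72 in tumours and 10.82 to 11.44 in normal prostate, with no overlap. With probe sets averaged it differed by -0.59. Of 18 other genes of the Abhd family, 0 rose and 3 fell (median -0.23). Abhd14b fell by 2.06 ± 0.375 (adjusted p = 0.00097), at 7.91 to 10.99 in tumours and 11.24 to 12.28 in normal prostate, with no overlap. Abhd16a, a phosphatidylserine lipase, fell by 0.82 ± 0.135 (adjusted p = 0.000439), a call lost when probe sets that can match several transcripts were left out. Abhd13 fell by 0.63 (adjusted p = 0.0386), a call lost on omission of any of 11 of the 18 arrays. The other 15 Abhd genes did not pass the test.

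**Figure D5:**
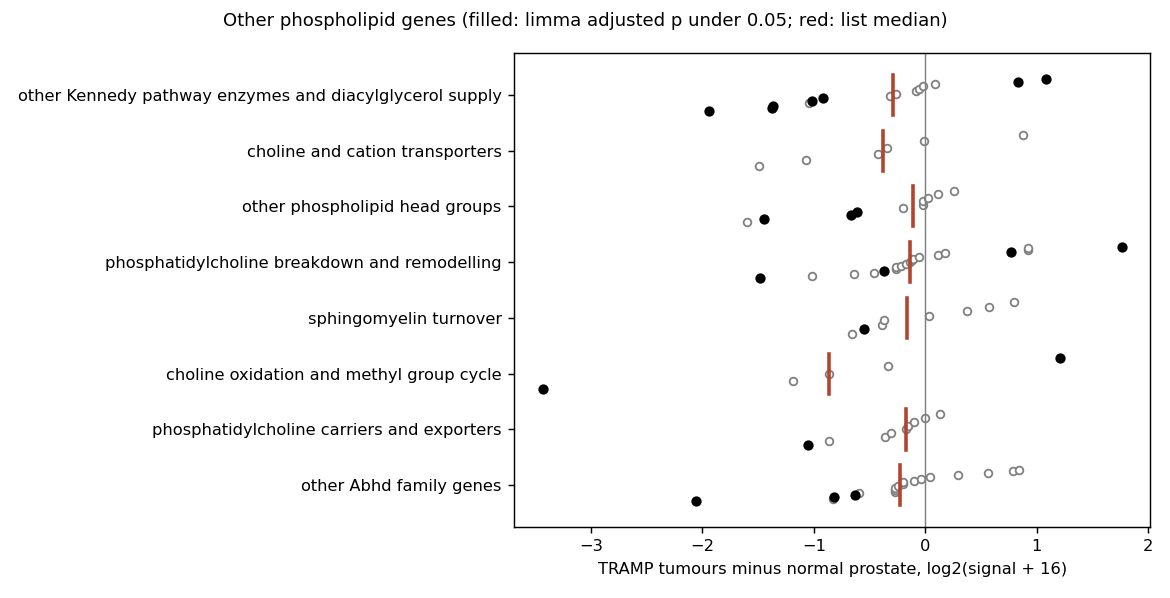
Difference of each gene in the 8 lists between TRAMP tumours and normal prostate, in log2(signal + 16), filled where the limma adjusted p was under 0.05, with the list median as a red bar. All 8 medians lie below 0, from -0.87 for choline oxidation and the methyl group cycle to -0.11 for other phospholipid head groups, and genes lie on both sides of 0 in every list.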

How the data were processed

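Total RNA, extracted with Trizol and labelled with biotin per the labels' protocols, was measured on 18 Affymetrix arrays. The deposited table holds linear intensities per probe set. The submitters' processing notes name MAS5, with its version not given in the sources used here. The 2% trimmed mean was 500 on each array, so brightness is matched by 1 factor per array, dim signals stay noisy, and the number of arrays limits the precision. Log2(signal + 16) was taken with no further normalization. Probe sets above the 40th percentile of their array on at least 9 arrays were kept, and the brightest kept single-gene probe set stood for each gene. limma 3.58.1 in R 4.3.3 (lmFit, eBayes, two-sided, Benjamini-Hochberg at 0.05) was fitted to all 12793 genes, group only, and again with group, technical batch and interaction. The code was tested on simulated data.

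Members, gene lists and tests were chosen with earlier results of these data known. Named were all members, up to 4 called genes per list by absolute moderated t (all genes of a list with 5 or fewer kept), and the 5 genes most like Chpt1 and Abhd3. Dim means under the 40th percentile of an array, and no detection calls were used. Promoter windows were found for 7 of 9 members in RefSeq tables of GRCm38.p6. The arrays have no stated build. Alternatives were other pseudocounts, filters, normalizations, probe set rules, batch and replicate blocks, an adipocyte covariate and left-out arrays. Averaging or omitting tumours 6 and 8, and omitting normal prostate 9 alone, were chosen after seeing the data. Plots used matplotlib 3.10.9 and Python 3.11.15.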

Additional observations from a re-analysis of the deposited data

Results flagged for a closer look

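Among 40 genes examined in both groups, 80 sets of 9 values, 6 sets had a highest or lowest array far from its neighbours by Dixon's test, where chance alone gives about 1 in 20, and none of the 6 belongs to the 9 choline phospholipid synthesis genes. Gpam stood at 12.49 in tumour 4, against 11.13 for the next highest tumour. Pcyt1b stood at 9.80 in tumour 9, against 8.505 for the next highest. Lyplal1 stood at 7.60 in tumour 9, against 8.497 for the next lowest tumour. In normal prostate 3 the lowest values were those of Smpd1 (10.10, next 10.55), Ahcy (9.75, next 10.35) and Chdh (8.94, next 10.46). All values are log2(signal + 16).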

How the results depend on the processing

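Over 36 alternatives the differences of Chpt1, Cept1, Chka and Abhd3 kept their sign. Chpt1 ranged from -3.05 to -1.63 (without probe sets that can match several transcripts), Chka from -2.32 (without 6 arrays, normal prostate 9 and tumours 3, 5, 6, 7 and 8) to -0.74, Abhd3 from -3.44 to -2.10 and Cept1 from -0.57 to -0.27. Pcyt2 was 0.32 in the second technical batch alone. Of the members not called with all arrays, Chkb kept its sign in 35 of 35, Pcyt2 in 34 of 35, Etnk1 in 35 of 36, Pcyt1a in 34 of 36 and Pemt in 29 of 34. Members called lower were 3 to 4 on omission of 1 array, 5 without tumours 6 and 8 and also without the 6 arrays, Pcyt2 being the added one, 2 with the adipocyte covariate and 0 in the second batch alone. The labels do not say whether their numbers pair the samples. Correlations of same-numbered deviations ran from -0.11 to 0.31, 1 of 9 above 0.1, and 1 of 9 arrays correlated best with its own number. Low correlations cannot exclude a pairing, since other differences between the samples can hide it. With the replicate number as a block Chpt1 stayed at -2.57 and 3 members were called lower. Other phospholipid genes called higher, 5 in all, were 9 with probe sets averaged, 9 without normal prostate 9 and tumours 3, 5 and 7, 11 when tumours 6 and 8 were left out as well, 8 without normal prostate 9, 3 with the adipocyte covariate, and 4 to 8 on omission of 1 array. Those called lower, 16 in all, were 31 without the same 6 arrays, 8 with the covariate, and 13 to 17 on omission of 1 array. Over all genes, 1444 higher and 1623 lower became 2196 and 2664 without the 6 arrays, 738 and 661 with the covariate, and 1148 to 1591 and 1306 to 1820 on omission of 1 array. In the second batch alone, with 4 tumours and 3 normal prostates, limma called 0 genes in either direction (856 higher and 783 lower at an unadjusted p under 0.05), among them 0 of the lists (3 higher and 8 lower unadjusted). Of the 5 genes most like Chpt1 and Abhd3, 1 and 0 stayed among the nearest without normal prostate 9 and tumours 3, 5 and 7. The cause was not tested for any of these. Chkb, Pcyt2 and Pemt have no probe set without a suffix for several transcripts, and Pemt did not pass the 60th percentile filter. Dim signals limit Abhd3 and Gnmt, and a single probe set 5 of the 9 genes.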

Other observations

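Among the members, 2 had nearest neighbours that stood out, named after their values were seen. Over deviations from the group means on 18 arrays, Pemt was most like Pld4, C1qa, Slfn8, H2-DMa and C1qc, at 0.82 to 0.84, of which C1qa and C1qc encode complement subunits made mainly by macrophages. Chka was most like Dlg3, which encodes a membrane scaffold protein, at 0.943, the closest such likeness of the 9 genes, and this held within the 9 tumours (0.977) and the 9 normal prostates (0.887).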
